A study of Homo sapiens with 12 samples.

Results

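Gene expression in A375 melanoma cells exposed to 6-thio-dG at 5 µM was set directly against that in A375 cells exposed to BIBR1532 at 25 µM, without the untreated cells. The comparison rests on 4 of the 12 RNA sequencing libraries of the series, chosen from the labels by cell line and treatment, with 2 replicate libraries per compound. A375 is a human metastatic melanoma line whose growth is driven by an activating BRAF mutation. The untreated A375 control (2 libraries) and the same pair of treatments in a second metastatic melanoma line, LOX-IMVI BR (2 libraries per treatment), are given beside the results as reference levels. The doses differ, so compound and dose cannot be told apart. The sources used here do not say what BR stands for, how long the cells were exposed or which vehicle the control received. The labels do not say how far the replicate cultures were separated, so the p-values measure the spread between these libraries, which may in part be technical.

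Telomerase is the reverse transcriptase that extends chromosome ends, and most melanomas keep it active. 6-thio-dG is a thiopurine deoxynucleoside that telomerase can place into telomeric DNA and that other polymerases can also use, whereas BIBR1532 is a small molecule of another kind, not a nucleoside, that inhibits the catalytic subunit TERT. Many of the genes described below belong to pathways that respond within hours to signals in the cell: NF-kappaB drives cytokines and its own inhibitors, HSF1 drives cytosolic chaperones, NRF2 drives antioxidant and iron-storage genes, and ATF4 drives amino acid synthesis genes.

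The 6-thio-dG libraries held 11813388 and 12151180 counts and the BIBR1532 libraries 21692316 and 19546597. The 6-thio-dG replicates lay further apart, with a median absolute log2 difference between replicates of 0.57, against 0.161 for BIBR1532, over the 22766 genes tested. Much of that gap followed the GC content of the transcript. In the eighth of genes with the lowest GC content the median deviation from the mean of the 4 libraries was -0.876 and 0.924 (log2 CPM) in 6-thio-dG replicates 1 and 2, and -0.208 and 0.102 in the BIBR1532 replicates. In the highest eighth these values were 0.345 and -0.416 for 6-thio-dG, and 0.0994 and -0.0255 for BIBR1532. AT-rich transcripts were thus high in one 6-thio-dG library and low in the other, and their mean was poorly determined. The share of genes called higher with BIBR1532 was 0.964% in the lowest eighth and 7.35% in the fifth. The part of GC content and depth in any single result was not tested, and counts of calls after a GC correction are given with the lists. Levels below are TMM-scaled CPM, with scaling factors from all 12 libraries, whereas fold changes (6-thio-dG minus BIBR1532 on the log2 scale, with the standard error, SE) come from the 4 libraries alone. Reads were not assigned by strand as far as the sources used here state, so overlapping genes cannot be told apart.

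**Figure D1:**
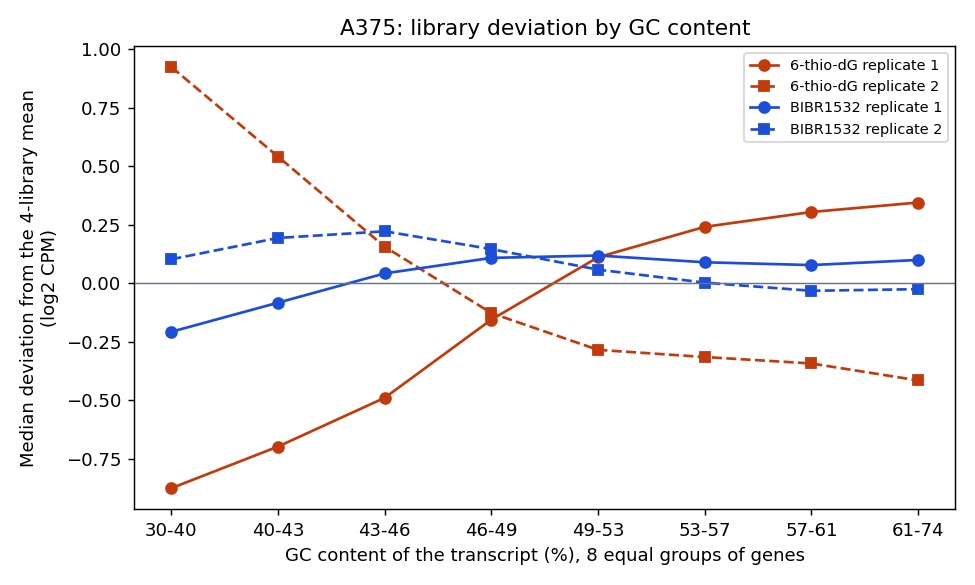
Median deviation of each of the 4 A375 libraries from their mean (vertical axis, log2 CPM) in 8 groups of equal size of genes ordered by transcript GC content (horizontal axis, percent). The lines of the 6-thio-dG replicates cross, from -0.876 and 0.924 at the left to 0.345 and -0.416 at the right, while both BIBR1532 lines stay near 0.

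More genes were higher with BIBR1532 than with 6-thio-dG. Of 22766 genes tested with edgeR, 889 (3.9%) were higher with BIBR1532 and 502 (2.21%) were higher with 6-thio-dG at an adjusted p (Benjamini-Hochberg over all genes) under 0.05. Scaling by upper quartiles instead gave 949 and 958, so that 50.2% of the calls, in place of 36.1%, were higher with 6-thio-dG, and it moved the median of all genes by 0.135. Among the 13345 genes with a symbol the counts were 569 (4.26%) and 205 (1.54%), and the remaining calls were long noncoding genes of the NONCODE catalogue. Genes in which both libraries of a compound lay above both of the other were far more common: 4319 (32.4%) for BIBR1532 and 2375 (17.8%) for 6-thio-dG. An unadjusted p under 0.05 by edgeR was found for 5726 of the 22766 genes, both directions together. DESeq2 called 1281 genes higher with BIBR1532 and 675 higher with 6-thio-dG. These are the background for the counts of list members below. The calls depended on the library left out. Leaving out a BIBR1532 library leaves the spread of the noisier 6-thio-dG pair alone to set the error, with the lone library assumed to vary like that pair, and the counts (BIBR1532 first) were 203 and 42 (without BIBR1532 replicate 1) and 221 and 49 (without replicate 2). Leaving out a 6-thio-dG library leaves the closer BIBR1532 pair alone to set the error, with the lone 6-thio-dG library assumed to vary like it, so calls made there rest on 1 library of 6-thio-dG. These counts were 6133 and 6385 (without 6-thio-dG replicate 1) and 6673 and 5487 (without replicate 2). After GC correction, over 13280 genes with a GC value, they were 2142 and 1835, the background for the GC-corrected counts of list members below. All 94 called genes that are named by rule kept their direction in each of the 17 alternative settings, and 38 and 43 of them remained called without BIBR1532 replicate 1 and replicate 2.

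The place of the untreated cells differed between the directions. Of the 205 symbol-named genes higher with 6-thio-dG, the control mean lay between the compounds and nearer to BIBR1532 for 120, below both for 55, nearer to 6-thio-dG for 25 and above both for 5. Of the 569 higher with BIBR1532, it lay between and nearer to 6-thio-dG for 207, between and nearer to BIBR1532 for 189, below both for 99 and above both for 74. Among all 13345 symbol-named genes the control lay above both compounds for 6131 (45.9%) and below both for 3572 (26.8%). It lay between and nearer to BIBR1532 for 1970 (14.8%), and between and nearer to 6-thio-dG for 1672 (12.5%). The 55 of 205 below both are also 26.8%. Called genes leave more room between the compounds, so the shares in between cannot be compared with those over all genes. The 2 control libraries held 25822381 and 14817553 counts, with TMM factors of 1.037 and 0.746. These are positions of means, with no test.

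**Figure D2:**
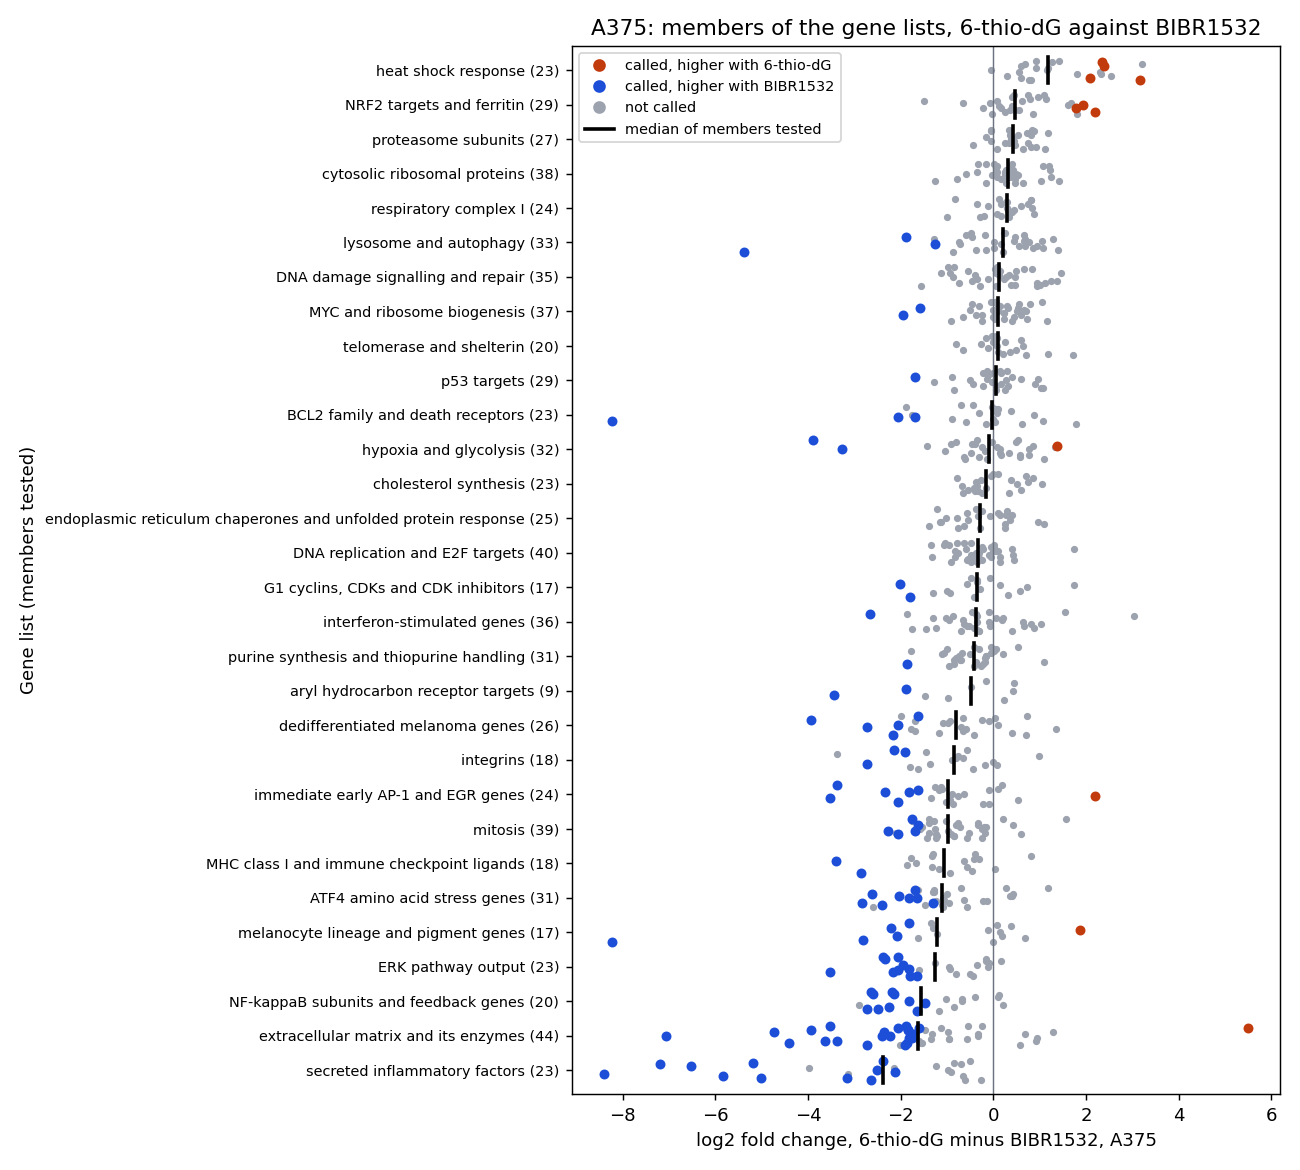
Log2 fold change in A375, 6-thio-dG minus BIBR1532 (horizontal axis), of each tested member of the pathway lists with at least 9 tested members (vertical axis, members tested in brackets), with called members coloured and list medians as black bars. Medians run from -2.39 for secreted inflammatory factors to 1.18 for the heat shock response.

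Secreted inflammatory factors showed the lowest median of the lists with at least 9 tested members. Of 29 listed members 23 passed the low-count filter. Of these 23 tested members, 11 were higher with BIBR1532, with a list median log2 difference (6-thio-dG minus BIBR1532) of -2.39, against 0.0064 over all symbol-named genes. A member near 0 with one compound could pass the filter only through the other, so the share called and the median rest in part on that filter. CSF2, the growth factor GM-CSF, stood at 1.67 and 0.672 CPM with 6-thio-dG, at 421 and 379 CPM with BIBR1532 and at 5.91 and 5.52 CPM in the control. It was 338-fold higher with BIBR1532 (log2 difference -8.40 ± 0.51 SE, adjusted p = 0.0157). The control mean lay between the compounds and nearer to 6-thio-dG, with both control libraries above both 6-thio-dG libraries. IL1B, the cytokine interleukin 1 beta, was at 2.09 and 1.75 CPM with 6-thio-dG, 301 and 278 CPM with BIBR1532 and 3.33 and 3.62 CPM in the control. Its difference was 147-fold (-7.20 ± 0.33 SE, adjusted p = 0.0157), with no overlap between libraries. IL6 was at 0.501 and 0.604 CPM against 54.3 and 52.6 CPM, 92.1-fold higher with BIBR1532 (-6.53 ± 0.42 SE, adjusted p = 0.0157). PTX3, a secreted pattern-recognition protein, was at 2.51 and 4.03 CPM against 196 and 191 CPM (56.8-fold, adjusted p = 0.0157). For each of the 4 genes every BIBR1532 library lay above every 6-thio-dG library and above both controls. IL11, an IL6-family cytokine, differed in its reference: it was at 68.3 and 34.7 CPM with 6-thio-dG, 314 and 289 CPM with BIBR1532 and higher still, at 787 and 957 CPM, in the control. Its difference between compounds was 5.71-fold (adjusted p = 0.0351), and this call was lost without BIBR1532 replicate 1 (adjusted p = 0.0628). No list member was called higher with 6-thio-dG by edgeR or by DESeq2, and none reached an unadjusted p under 0.05 in that direction. The count of 11 became 9 and 10 without BIBR1532 replicate 1 and 2, 20 without 6-thio-dG replicate 1 or replicate 2, and 18 after GC correction.

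The tested chemokines, which attract leukocytes, followed the same order apart from a single member. Of 18 listed chemokines 7 passed the low-count filter, and 5 had no count in any of the 4 libraries. Of the 7 tested members, 5 were higher with BIBR1532 and 1 was higher with 6-thio-dG. A gene near 0 with one compound could pass the filter only through the other, as CXCL11 did, so the share called rests in part on that filter. CXCL8, the neutrophil chemokine interleukin 8, was at 2.09 and 7.05 CPM with 6-thio-dG, 303 and 358 CPM with BIBR1532 and 26.1 and 46.9 CPM in the control. It was 68.8-fold higher with BIBR1532 (-6.11 ± 0.67 SE, adjusted p = 0.0262). CXCL2 (1.25 and 0.806 against 48.1 and 44.8 CPM) and CXCL3 (1.09 and 1.14 against 31.1 and 28 CPM) bind the same receptor as CXCL8 and were 43.9-fold and 25.6-fold higher with BIBR1532 (adjusted p = 0.0199 and 0.0204). CX3CL1, the membrane-bound fractalkine, was 29.8-fold higher (0.334 and 0.403 against 11.3 and 11.9 CPM, adjusted p = 0.0204). CXCL11 had 37 counts with BIBR1532 and 0 with 6-thio-dG, at least 7.72-fold higher when the 6-thio-dG group is set to the limit of 3 counts. CCL26, the eosinophil chemokine eotaxin 3, went the other way, at 5.26 and 4.16 CPM with 6-thio-dG, 0.135 and 0.145 CPM with BIBR1532 and 0.0748 and 0.272 CPM in the control (33-fold, log2 difference 5.04 ± 0.44 SE, adjusted p = 0.0204). CCL26 had 6 counts over both BIBR1532 libraries, so the size of its fold is imprecise. After GC correction 6 chemokines were called higher with BIBR1532 and 1 higher with 6-thio-dG. Without either BIBR1532 replicate, 4 chemokines were still called higher with BIBR1532 and 1 higher with 6-thio-dG.

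**Figure D3:**
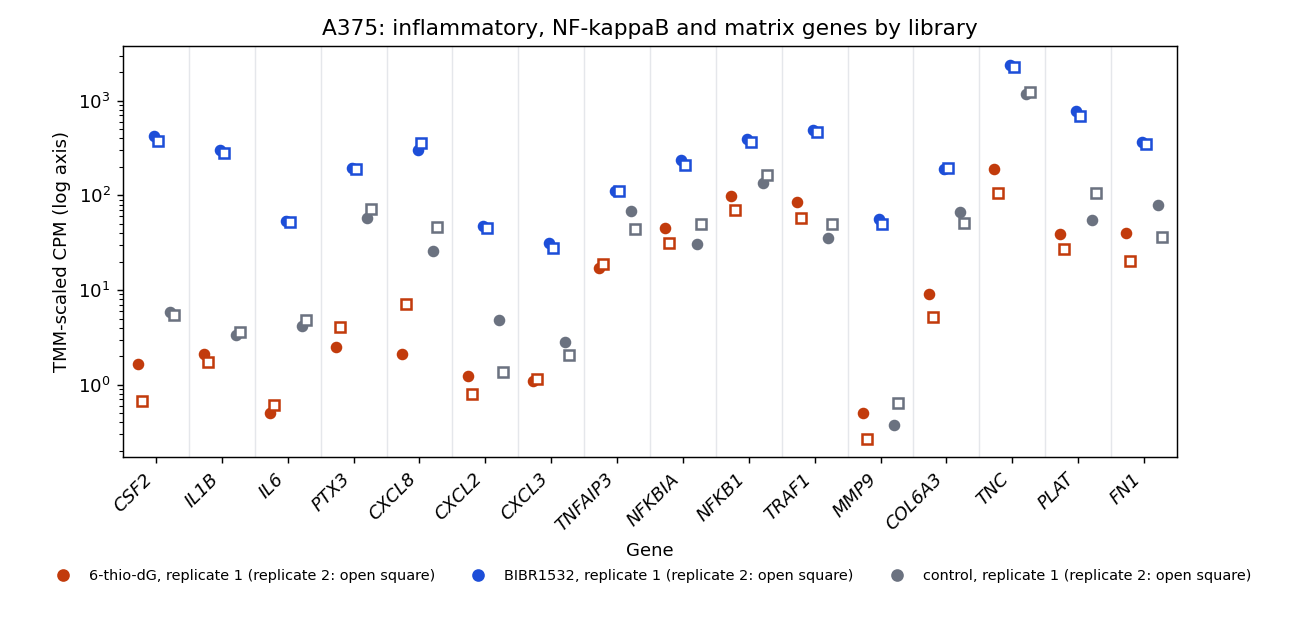
TMM-scaled CPM (vertical axis, log scale) in each A375 library for 16 genes higher with BIBR1532 than with 6-thio-dG, filled circles for replicate 1 and open squares for replicate 2. Both BIBR1532 libraries lie above both 6-thio-dG libraries for each of the 16 genes. The controls of CSF2 (5.91 and 5.52 CPM) and IL1B (3.33 and 3.62 CPM) lie above 6-thio-dG but nearer to it than to BIBR1532.

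Letters of an NF-kappaB site lie close to the start of several called genes. The 250 bases before the gene start are printed for 4 of them because they hold the letters GGGANNTTCC on either strand, set in capitals (RefSeq, GRCh38.p14). IL6 lies on chromosome 7, plus strand (chr7:22726950-22727199), CXCL2 on chromosome 4, minus strand (chr4:74099196-74099445), NFKBIA on chromosome 14, minus strand (chr14:35404750-35404999) and TNFAIP3 on chromosome 6, plus strand (chr6:137867009-137867258).
IL6: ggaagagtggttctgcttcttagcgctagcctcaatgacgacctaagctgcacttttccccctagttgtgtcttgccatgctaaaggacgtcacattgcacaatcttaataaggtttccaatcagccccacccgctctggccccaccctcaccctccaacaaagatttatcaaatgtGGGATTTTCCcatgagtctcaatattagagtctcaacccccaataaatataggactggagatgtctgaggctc
CXCL2: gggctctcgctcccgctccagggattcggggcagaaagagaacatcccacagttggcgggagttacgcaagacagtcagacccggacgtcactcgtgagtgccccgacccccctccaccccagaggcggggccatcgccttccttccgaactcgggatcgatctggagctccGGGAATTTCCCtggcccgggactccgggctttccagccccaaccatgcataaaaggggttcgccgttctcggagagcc
NFKBIA: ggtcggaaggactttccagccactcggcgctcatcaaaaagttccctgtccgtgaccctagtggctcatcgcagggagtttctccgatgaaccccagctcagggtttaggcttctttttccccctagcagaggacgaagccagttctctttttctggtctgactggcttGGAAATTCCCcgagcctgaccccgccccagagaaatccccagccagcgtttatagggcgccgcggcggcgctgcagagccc
TNFAIP3: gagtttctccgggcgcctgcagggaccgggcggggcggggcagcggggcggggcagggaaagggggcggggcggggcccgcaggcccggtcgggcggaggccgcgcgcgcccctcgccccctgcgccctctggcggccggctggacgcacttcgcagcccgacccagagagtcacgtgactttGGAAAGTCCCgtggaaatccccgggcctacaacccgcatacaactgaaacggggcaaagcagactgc
The match began 73 bases before the start in IL6, 81 in NFKBIA and 67 in TNFAIP3, and CXCL2 held 2 overlapping matches beginning 78 and 77 bases before it. Of 27305 promoter windows of this length in the RefSeq table, 389 (1.42%) held the letters, as did 142 (1.38%) of the 10276 tested symbol-named genes with an entry. Among called genes with an entry they were present in 16 of 397 (4.03%) higher with BIBR1532 and in 5 of 133 (3.76%) higher with 6-thio-dG, so the shares were similar in both directions. The list of NF-kappaB subunits and feedback genes had them in 5 of 18 windows (27.8%) and the chemokines in 3 of 5. Secreted inflammatory factors had them in 1 of 16 windows (6.25%), that of IL6, and heat shock genes in 0 of 20. A match is a description of the letters in this window.

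Genes of the NF-kappaB pathway itself were higher with BIBR1532 in 10 of 20 tested members, with a median log2 difference of -1.56. TNFAIP3, the A20 enzyme that shuts the pathway down, was at 17.2 and 18.7 CPM with 6-thio-dG, 112 and 111 CPM with BIBR1532 and 67.9 and 43.7 CPM in the control (6.04-fold, -2.59 ± 0.27 SE, adjusted p = 0.0251). NFKBIA, the inhibitor that holds the factor in the cytoplasm, was at 45.5 and 31.5 CPM against 236 and 211 CPM (5.65-fold, adjusted p = 0.027). Its control libraries, at 30.8 and 50.4 CPM, spanned the 6-thio-dG values. The subunit NFKB1 (99.8 and 69.4 against 399 and 369 CPM, 4.42-fold) and the adaptor TRAF1 (85.1 and 57.5 against 491 and 471 CPM, 6.57-fold) were also called (adjusted p = 0.0283 and 0.0262). In all 4 genes the libraries of the compounds did not overlap. RELA, the other main subunit, was named after its values were seen: its difference was 0.21 (adjusted p = 0.76). No member was called higher with 6-thio-dG by edgeR or DESeq2, or at an unadjusted p under 0.05. The 10 calls became 1 and 3 without BIBR1532 replicate 1 and 2, where TNFAIP3 had an adjusted p of 0.117 and 0.093, NFKB1 of 0.172 and 0.113, NFKBIA of 0.0884 and 0.0425 and TRAF1 of 0.023 and 0.0164. Without 6-thio-dG replicate 1 or 2, 16 and 18 members were called, and 15 after GC correction.

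Several further genes named by rule were higher with BIBR1532. C3, the central complement protein, was at 7.02 and 3.43 CPM with 6-thio-dG, 781 and 697 CPM with BIBR1532 and 10.8 and 13.1 CPM in the control (139-fold, -7.12 ± 0.47 SE, adjusted p = 0.0157). LCN2, a siderophore-binding protein, was at 1.67 and 1.48 CPM against 192 and 179 CPM (114-fold, adjusted p = 0.0157). CTSS, the cathepsin that trims antigens for MHC class II, was at 1.75 and 3.09 CPM against 104 and 108 CPM (41.8-fold, adjusted p = 0.0199). The control mean of these 3 genes lay between the compounds and nearer to 6-thio-dG, and they kept their calls in all 17 alternative settings. UBD, a ubiquitin-like modifier, had 3 counts with 6-thio-dG and 769 with BIBR1532, a ratio of 160 (95% counting interval 54.7 to 780). C15orf48 had 3 and 833 counts, a ratio of 174 (59.3 to 844), and RAET1L, a ligand of the NKG2D receptor, 2 and 419, a ratio of 131 (36.1 to 1090). BCL2A1, a survival protein of the BCL2 family, had 0 and 93 counts and was at least 19.4-fold higher with BIBR1532 against the limit of 3 counts over the group. Intervals and limits cover counting error only.

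Antigen presentation genes and checkpoint ligands were called in 2 of 18 tested members, both higher with BIBR1532, while 16 of the 18 had both BIBR1532 libraries above both 6-thio-dG libraries. The median log2 difference was -1.06. HLA-B, which presents peptides to CD8 T cells, was at 9.27 and 5.17 CPM with 6-thio-dG, 87.4 and 68.4 CPM with BIBR1532 and 20 and 45 CPM in the control (10.5-fold, adjusted p = 0.028). HLA genes are close copies of each other, so their counts are uncertain. CD274, the checkpoint ligand PD-L1, was at 4.51 and 7.66 CPM against 40.1 and 51.9 CPM (7.29-fold, -2.87 ± 0.44 SE, adjusted p = 0.0351), yet both compounds lay far below the control at 317 and 141 CPM. CD274 was thus below the untreated cells with both compounds, and lower with 6-thio-dG. Interferon-stimulated genes gave 1 call of 36, GBP2, a guanylate-binding protein, at 2.59 and 4.16 against 20.6 and 24.1 CPM (6.37-fold, adjusted p = 0.0371), and none in the other direction by edgeR, where 2 had an unadjusted p under 0.05 and DESeq2 called 1. Without BIBR1532 replicate 1 neither list had a call, with an adjusted p of 0.0593 for HLA-B, and without replicate 2 the antigen presentation list had 1, HLA-B (adjusted p = 0.0121). CD274 then had an adjusted p of 0.119 and 0.224, and GBP2 of 0.235 and 0.296. After GC correction 13 of the 18 antigen presentation and checkpoint genes were called higher with BIBR1532 and 1 higher with 6-thio-dG, and 8 and 1 of the interferon-stimulated genes.

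Extracellular matrix genes and the enzymes that cut and crosslink them formed the longest run of calls: 21 of 44 tested members were higher with BIBR1532 and 1 was higher with 6-thio-dG, with a median log2 difference of -1.63. MMP9, a gelatinase, was at 0.501 and 0.269 CPM with 6-thio-dG, 55.7 and 49.8 CPM with BIBR1532 and 0.374 and 0.634 CPM in the control (133-fold, -7.06 ± 0.49 SE, adjusted p = 0.0162). COL6A3, a collagen VI chain, was at 9.02 and 5.17 CPM against 192 and 193 CPM, with the control between at 66.7 and 50.7 CPM (26.5-fold, adjusted p = 0.0199). TNC, the matrix glycoprotein tenascin C, went from 191 and 107 CPM to 2410 and 2290 CPM, with the control at 1190 and 1240 CPM (15.3-fold, adjusted p = 0.0205). PLAT, tissue plasminogen activator, was at 39.6 and 27.5 CPM against 776 and 693 CPM (21.3-fold, adjusted p = 0.0179), and FN1, fibronectin, at 40.5 and 20.3 CPM against 367 and 348 CPM (11.5-fold, adjusted p = 0.0262). In all 5 the libraries of the compounds did not overlap. LOXL2, which crosslinks collagen, was 6.64-fold higher with BIBR1532 (17.7 and 13.6 against 112 and 102 CPM, adjusted p = 0.0262), with its control, at 86.3 and 193 CPM, far apart. TIMP3, a metalloprotease inhibitor, was at 647 and 372 against 1650 and 1460 CPM and missed the threshold (adjusted p = 0.0546), but was called after GC correction (adjusted p = 0.03166) and by DESeq2 (adjusted p = 0.007955).

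The exception was MMP3, stromelysin, at 4.43 and 6.45 CPM with 6-thio-dG, 0.0448 and 0.194 CPM with BIBR1532 and 0.673 and 1.36 CPM in the control (45.3-fold higher with 6-thio-dG, 5.50 ± 0.64 SE, adjusted p = 0.0267). Its direction was thus opposite to that of MMP9. MMP3 had 5 counts over both BIBR1532 libraries, so the size of its fold is imprecise. The count of 21 became 7 and 8 without BIBR1532 replicate 1 and 2, 36 without 6-thio-dG replicate 1 or replicate 2, and 31 after GC correction. LOXL2 had an adjusted p of 0.113 and 0.057 without BIBR1532 replicate 1 and 2. Integrins, the receptors that bind this matrix, were called in 3 of 18 members, all higher with BIBR1532: ITGB3 (78.5 and 54.9 against 462 and 444 CPM, 6.61-fold, adjusted p = 0.0251), ITGA5 (222 and 134 against 726 and 654 CPM, 3.77-fold, adjusted p = 0.0381) and ITGB4 (10.5 and 6.31 against 40.8 and 35.5 CPM, 4.42-fold, adjusted p = 0.0439). ITGB3 alone of the 3 kept its call without BIBR1532 replicate 1 or 2 (adjusted p = 0.0226 and 0.0163), where ITGA5 had 0.29 and 0.178 and ITGB4 had 0.587 and 0.413. After GC correction 9 integrins were called higher with BIBR1532 and 1 higher with 6-thio-dG. Without it, no integrin was called higher with 6-thio-dG by edgeR or DESeq2, and 1 had an unadjusted p under 0.05 in that direction.

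Transcripts that follow ERK signalling, the pathway downstream of BRAF, were higher with BIBR1532 in 10 of 23 tested members (median log2 difference -1.25). EGR1, an immediate early transcription factor, was at 88.7 and 43.5 CPM with 6-thio-dG, 820 and 747 CPM with BIBR1532 and 207 and 88.5 CPM in the control (11.6-fold, -3.53 ± 0.41 SE, adjusted p = 0.0263). DUSP6, the phosphatase that dampens ERK, was at 77.7 and 92.3 CPM against 362 and 365 CPM, with the control nearer to BIBR1532 at 271 and 307 CPM (4.15-fold, adjusted p = 0.028). CCND1, cyclin D1, was at 310 and 268 CPM against 1060 and 1010 CPM (3.46-fold, adjusted p = 0.0287), and PHLDA1 at 250 and 253 CPM against 1210 and 1120 CPM (4.49-fold, adjusted p = 0.0262). The control mean of both lay between the compounds, nearer to BIBR1532. MYC was at 27.9 and 18.1 CPM with 6-thio-dG, 92.5 and 89.3 CPM with BIBR1532 and 379 and 472 CPM in the control (3.85-fold between the compounds, adjusted p = 0.0381). Like CD274, it was below the control with both compounds, and further below with 6-thio-dG. Immediate early genes, which overlap this list, gave 6 calls higher with BIBR1532 of 24, among them EGR2 (10.4-fold, adjusted p = 0.0319) and EGR3 (5.06-fold, adjusted p = 0.0359). The nuclear receptor NR4A2 was the single call in the other direction, at 69.4 and 44.3 CPM with 6-thio-dG against 12.6 and 12.8 CPM (4.58-fold, adjusted p = 0.037). No ERK list member was called higher with 6-thio-dG by edgeR or DESeq2, or at an unadjusted p under 0.05. Without BIBR1532 replicate 1 and 2 the ERK list had 1 and 2 calls. EGR1 was called in both cases (adjusted p = 0.000735 and 0.000326), and the adjusted p of DUSP6 was 0.182 and 0.162, that of CCND1 0.34 and 0.263, that of PHLDA1 0.141 and 0.0999 and that of MYC 0.452 and 0.361. NR4A2 had 0.522 and 0.465, EGR2 0.0783 and 0.064 and EGR3 0.295 and 0.173. The immediate early list had 1 call in each case, and without 6-thio-dG replicate 1 and 2 the ERK list had 19 and 17 calls. After GC correction 15 members of each list were called higher with BIBR1532, with 0 and 1 (immediate early) in the other direction.

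Markers of the cells' own lineage checked the label. SOX10 and PAX3, the neural crest factors of melanocytes, MITF, S100B and PMEL passed the low-count filter, while the pigment genes TYR, TYRP1, DCT and MLANA did not, so the defining pigment enzymes were absent or near 0. SOX10 was at 559 and 284 CPM with 6-thio-dG and 1410 and 1250 CPM with BIBR1532 and missed the threshold (adjusted p = 0.064, and 0.003427 after GC correction). MITF, the lineage's master regulator, was at 2.92 and 14.2 CPM with 6-thio-dG and 6.46 and 9.65 CPM with BIBR1532, so the groups overlapped (adjusted p = 0.928), and both lay below the control at 45.6 and 34.5 CPM. Its direction turned with the 6-thio-dG library used: the log2 difference was 0.87 without replicate 1 and -1.44 without replicate 2, and it was -0.148 without BIBR1532 replicate 1. Of the 17 tested lineage and pigment genes, 5 were called higher with BIBR1532, with OCA2 (7.01-fold) and RAB38 (4.60-fold), both of melanosome biology, among them (adjusted p = 0.0283 and 0.028). GPNMB, a melanosomal glycoprotein, was the call in the other direction, at 119 and 121 CPM with 6-thio-dG, 33.6 and 34.7 CPM with BIBR1532 and 46.3 and 51.1 CPM in the control (3.63-fold, adjusted p = 0.0301). Dedifferentiated melanoma genes gave 5 calls of 26, all higher with BIBR1532. AXL, a receptor kinase that marks that state, was at 294 and 206 CPM against 1190 and 1130 CPM (4.52-fold, adjusted p = 0.0281), with the control at 1400 and 1650 CPM above both. Leaving out BIBR1532 replicate 1 and 2 gave AXL an adjusted p of 0.133 and 0.101, RAB38 0.256 and 0.216, OCA2 0.184 and 0.139 and GPNMB 0.553 and 0.49. The lineage list then had 1 call, and the dedifferentiated list had 1 call, in each case. After GC correction 9 lineage and 14 dedifferentiated genes were called higher with BIBR1532, and 2 and 1 higher with 6-thio-dG.

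Amino acid stress genes driven by ATF4 were higher with BIBR1532 in 8 of 31 tested members (median log2 difference -1.11), and 25 of the 31 had both BIBR1532 libraries above both 6-thio-dG libraries. ASNS, asparagine synthetase, was at 145 and 146 CPM with 6-thio-dG, 940 and 915 CPM with BIBR1532 and 610 and 1340 CPM in the control (6.18-fold, -2.63 ± 0.25 SE, adjusted p = 0.0204). CBS, which makes cystathionine, was at 25.7 and 18.5 CPM against 168 and 154 CPM (7.10-fold, adjusted p = 0.0251). CHAC1, which degrades glutathione, was at 45.8 and 29.1 CPM against 217 and 189 CPM (5.28-fold, adjusted p = 0.0283), and PSAT1, of serine synthesis, at 137 and 149 CPM against 480 and 451 CPM (3.15-fold, adjusted p = 0.0331). For ASNS and CBS the 6-thio-dG libraries lay below both control libraries and the BIBR1532 libraries lay within the control range. DDIT3, the stress factor CHOP, was at 193 and 225 CPM against 444 and 454 CPM and was not called (adjusted p = 0.066). The ER chaperone HSPA5, at 902 and 930 CPM against 2090 and 2130 CPM, had an adjusted p of 0.0506. After GC correction both were called (adjusted p = 0.02819 for DDIT3 and 0.01454 for HSPA5), and in all HSPA5 was called in 11 and DDIT3 in 7 of 17 alternative settings. HSPA5 was at 3050 and 3540 CPM in the control. Among 25 ER chaperone and unfolded protein response genes edgeR called 0, while DESeq2 called 4 and 7 had an unadjusted p under 0.05, all higher with BIBR1532. After GC correction 7 were called higher with BIBR1532 and 2 higher with 6-thio-dG. The ATF4 count of 8 became 2 without BIBR1532 replicate 1 or replicate 2, 26 without 6-thio-dG replicate 1 or replicate 2, and 22 after GC correction, where 2 were called higher with 6-thio-dG. ASNS kept its call without BIBR1532 replicate 1 and 2 (adjusted p = 0.0273 and 0.0224), CBS also did (0.0439 and 0.02), CHAC1 had 0.132 and 0.0585, and PSAT1 had 0.448 and 0.346. PSAT1 also missed the threshold after GC correction (adjusted p = 0.0573).

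Targets of the aryl hydrocarbon receptor, a sensor of planar ring compounds, gave 2 calls of 9. CYP1A1, the enzyme most used as its readout, was at 42.6 and 30.2 CPM with 6-thio-dG, 144 and 133 CPM with BIBR1532 and 3.36 and 5.07 CPM in the control (3.71-fold between the compounds, adjusted p = 0.0351). Both compounds lay above the control in this gene. ALDH1A3, a retinaldehyde dehydrogenase, was at 31.2 and 40.8 against 391 and 419 CPM (10.9-fold, adjusted p = 0.0199), and CYP1B1 was not called (1.75 and 6.04 against 9.28 and 13.2 CPM, adjusted p = 0.243, and 0.06968 after GC correction). After GC correction 4 of the 9 were called, all higher with BIBR1532. For CYP1A1 the adjusted p was 0.402 and 0.266 without BIBR1532 replicate 1 and 2, and for ALDH1A3 it was 0.000807 and 0.00106. Of 32 hypoxia and glycolysis genes, 2 were higher with BIBR1532, ANGPTL4 (11.4 and 6.78 against 145 and 131 CPM, 14.9-fold, adjusted p = 0.0204) and CA9 (1.67 and 0.47 against 11.8 and 8.92 CPM, 9.59-fold, adjusted p = 0.047). ANGPTL4 was above its control (2.28 and 3.35 CPM) with both compounds, and CA9 was below its control (14 and 31.1 CPM) with both. CA9 lost its call without BIBR1532 replicate 1 (adjusted p = 0.0843). In the same list GAPDH, a glycolytic enzyme, was higher with 6-thio-dG (8400 and 6710 against 3190 and 2850 CPM, 2.58-fold, adjusted p = 0.0444), and its control libraries stood far apart at 4670 and 13700 CPM. GAPDH had an adjusted p of 0.737 and 0.813 without BIBR1532 replicate 1 and 2. After GC correction 9 genes of the list were called higher with BIBR1532 and 8 higher with 6-thio-dG.

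Genes of cell division leaned toward BIBR1532. Of 39 tested mitosis genes, 5 were called, all higher with BIBR1532, and 25 had both BIBR1532 libraries above both 6-thio-dG libraries (median log2 difference -0.988). PLK1, a mitotic kinase, was at 21.7 and 16.6 CPM with 6-thio-dG, 98.8 and 91.4 CPM with BIBR1532 and 65.7 and 86.9 CPM in the control (4.83-fold, -2.27 ± 0.29 SE, adjusted p = 0.0281). UBE2C, which helps to degrade cyclin B, was at 25.1 and 21.5 CPM against 105 and 96.5 CPM (4.19-fold, adjusted p = 0.0283). TPX2 (3.37-fold) and KIF2C (3.07-fold), both of the spindle, were also called (adjusted p = 0.0371 and 0.0381). For PLK1, UBE2C and TPX2 the control mean lay between the compounds and nearer to BIBR1532. The median GC content of the list was 43.2%, against 49.4% over all symbol-named genes. After GC correction 20 of the 39 were called higher with BIBR1532, and DESeq2 called 14. Without BIBR1532 replicate 1 or 2 edgeR called 0 of them, with an adjusted p for PLK1 of 0.295 and 0.181, for UBE2C of 0.386 and 0.251, for TPX2 of 0.476 and 0.433 and for KIF2C of 0.668 and 0.453. Without 6-thio-dG replicate 1 and 2 the count higher with BIBR1532 was 20 and 38. In the list of 40 DNA replication genes edgeR called 0, DESeq2 called 2, and 6 had an unadjusted p under 0.05, all higher with BIBR1532, although 22 had both BIBR1532 libraries above both 6-thio-dG libraries. Over all 22766 genes tested, 5726 had an unadjusted p under 0.05, both directions together. After GC correction 8 of the 40 were called higher with BIBR1532 and 2 higher with 6-thio-dG, against 2142 and 1835 of 13280 genes.

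Genes of the telomere and p53 targets gave few calls without GC correction. Of 20 tested telomerase and shelterin genes edgeR called 0, as did DESeq2, and 1 in each direction had an unadjusted p under 0.05 (median log2 difference 0.0945). After GC correction 4 of the 20 were called higher with 6-thio-dG and 0 higher with BIBR1532. TERT, the catalytic subunit, was at 4.76 and 1.61 CPM with 6-thio-dG, 5.65 and 5.72 CPM with BIBR1532 and 9.46 and 3.89 CPM in the control. Its log2 difference was -0.81 ± 0.55 SE (adjusted p = 0.421) and moved to -1.77 without 6-thio-dG replicate 1. TERC, the RNA template, was not analysed here. After GC correction 5 of 29 p53 targets were called higher with 6-thio-dG and 4 higher with BIBR1532. Over all genes with a GC value these counts were 1835 and 2142 of 13280. Without the correction 1 p53 target was called. The 1 was TNFRSF10B, the death receptor DR5, at 306 and 197 CPM against 858 and 804 CPM (3.22-fold higher with BIBR1532, adjusted p = 0.0408, and 0.424 and 0.331 without BIBR1532 replicate 1 and 2). CDKN1A, the cell cycle inhibitor p21, was at 946 and 573 CPM with 6-thio-dG, 652 and 592 CPM with BIBR1532 and 179 and 350 CPM in the control. The groups overlapped (log2 difference 0.32 ± 0.31 SE, adjusted p = 0.57), and the control lay below both compounds. MDM2, the p53 ubiquitin ligase, was at 95 and 286 CPM against 89.8 and 123 CPM (0.90 ± 0.56 SE, adjusted p = 0.389), and GDF15, a secreted stress cytokine, at 832 and 504 CPM against 540 and 491 CPM (0.41 ± 0.31 SE, adjusted p = 0.467). For these the 6-thio-dG replicates lay far apart, and the log2 difference of CDKN1A was -0.07 without 6-thio-dG replicate 1 and 0.62 without replicate 2, and that of MDM2 was 1.48 and -0.15. After GC correction all 3 were called higher with 6-thio-dG: CDKN1A by 0.33 (adjusted p = 0.03217), MDM2 by 0.85 (adjusted p = 0.03191) and GDF15 by 0.43 (adjusted p = 0.01691).

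Cytosolic chaperones of the heat shock response had the highest list median. Of 23 tested members, 4 were called, all higher with 6-thio-dG, 16 had both 6-thio-dG libraries above both BIBR1532 libraries, and the median log2 difference was 1.18. HSPA8, the constitutive HSP70, was at 4970 and 5200 CPM with 6-thio-dG, 1030 and 1040 CPM with BIBR1532 and 692 and 985 CPM in the control (5.06-fold, 2.34 ± 0.25 SE, adjusted p = 0.0251). HSPA1A, the inducible HSP70, was at 224 and 165 CPM against 22.5 and 21.8 CPM, with the control at 7.25 and 12.2 CPM (9.03-fold, 3.18 ± 0.29 SE, adjusted p = 0.0204). HSPA1B (174 and 122 against 30.8 and 27.3 CPM, 5.23-fold, adjusted p = 0.028) encodes the same protein and is a near-identical copy, so the split of reads between HSPA1A and HSPA1B is uncertain. HSPB8, a small heat shock protein, was at 111 and 66.1 CPM against 22.6 and 20 CPM (4.26-fold, adjusted p = 0.0385), with its control between at 31.4 and 49.3 CPM. HSP90AA1, the inducible HSP90, named after its values were seen, had the largest estimate of the list but was at 212 and 2300 CPM with 6-thio-dG and at 133 and 152 CPM with BIBR1532 (log2 difference 3.20 ± 1.08 SE, adjusted p = 0.145). No member was called higher with BIBR1532 by edgeR or DESeq2, or at an unadjusted p under 0.05. The count of 4 became 2 without BIBR1532 replicate 1 or replicate 2, 19 and 16 without 6-thio-dG replicate 1 and 2, 10 by DESeq2 and 14 after GC correction. HSPA1A kept its call without BIBR1532 replicate 1 and 2 (adjusted p = 0.0427 and 0.0438), whereas HSPA8 had 0.208 and 0.215, HSPA1B 0.218 and 0.254 and HSPB8 0.404 and 0.452.

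HSF1 binds repeated units of GAA in alternate orientation. The letters GAANNTTC, which hold a facing pair of units and read the same on both strands, are set in capitals in the 250 bases before the start of HSPA1A, HSPA8 and HSPB8 (RefSeq, GRCh38.p14). HSPA1B, the other called gene and a near copy of HSPA1A, also held 1 match and is not printed. HSPA1A lies on chromosome 6, plus strand (chr6:31815293-31815542), HSPA8 on chromosome 11, minus strand (chr11:123062137-123062386) and HSPB8 on chromosome 12, plus strand (chr12:119178681-119178930).
HSPA1A: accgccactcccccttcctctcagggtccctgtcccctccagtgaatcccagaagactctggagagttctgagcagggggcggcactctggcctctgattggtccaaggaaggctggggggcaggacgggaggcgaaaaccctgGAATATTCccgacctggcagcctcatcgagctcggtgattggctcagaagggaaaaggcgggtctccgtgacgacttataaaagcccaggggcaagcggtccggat
HSPA8: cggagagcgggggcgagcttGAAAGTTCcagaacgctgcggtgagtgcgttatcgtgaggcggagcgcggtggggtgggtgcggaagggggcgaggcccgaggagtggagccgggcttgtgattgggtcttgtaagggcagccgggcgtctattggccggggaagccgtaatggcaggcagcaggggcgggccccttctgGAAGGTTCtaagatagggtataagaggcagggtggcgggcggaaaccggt
HSPB8: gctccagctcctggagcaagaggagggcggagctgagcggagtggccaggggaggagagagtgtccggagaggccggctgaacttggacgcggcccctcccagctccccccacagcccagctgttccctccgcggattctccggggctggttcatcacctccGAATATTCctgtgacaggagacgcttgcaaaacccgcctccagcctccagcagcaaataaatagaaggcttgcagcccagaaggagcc
The pair began 106 bases before the start in HSPA1A, 88 in HSPB8, and 230 and 50 in HSPA8. It was present in 8 of 20 heat shock genes with an entry (40%), against 1597 of 27305 windows in the table (5.85%) and 430 of 10276 tested genes (4.18%). Among called genes the share was 8.27% of 133 higher with 6-thio-dG and 7.3% of 397 higher with BIBR1532. Secreted inflammatory factors held the pair in 2 of 16 windows (12.5%), NF-kappaB subunits and feedback genes in 1 of 18 and chemokines in 0 of 5. A match describes the letters in this window, as above.

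Ferritin and antioxidant genes were also higher with 6-thio-dG in 3 of 29 tested NRF2-linked members (median log2 difference 0.469), and 18 of 29 had both 6-thio-dG libraries above both BIBR1532 libraries. FTL, the ferritin light chain, was at 3850 and 2600 CPM with 6-thio-dG, 771 and 671 CPM with BIBR1532 and 755 and 1770 CPM in the control (4.60-fold, 2.20 ± 0.30 SE, adjusted p = 0.0287). FTH1, the heavy chain, was at 3140 and 1770 CPM against 709 and 614 CPM (3.81-fold, adjusted p = 0.0413). HMOX1, heme oxygenase, which frees iron from heme, was at 91.8 and 79.4 CPM against 26.3 and 24.6 CPM, and at 7.07 and 13.6 CPM in the control (3.46-fold, adjusted p = 0.0351). The BIBR1532 libraries of HMOX1 lay above the control as well, while those of FTH1 lay near it (574 and 649 CPM). Ferritin genes have many processed copies in the genome, so their counts are uncertain. No member was called higher with BIBR1532 by edgeR, 1 was by DESeq2, and 1 had an unadjusted p under 0.05. The count of 3 became 0 without BIBR1532 replicate 1 or replicate 2, where the adjusted p was 0.222 and 0.322 for FTL, 0.353 and 0.462 for FTH1 and 0.604 and 0.611 for HMOX1, and 19 and 18 without 6-thio-dG replicate 1 and 2. After GC correction 14 were called higher with 6-thio-dG and 1 higher with BIBR1532.

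**Figure D4:**
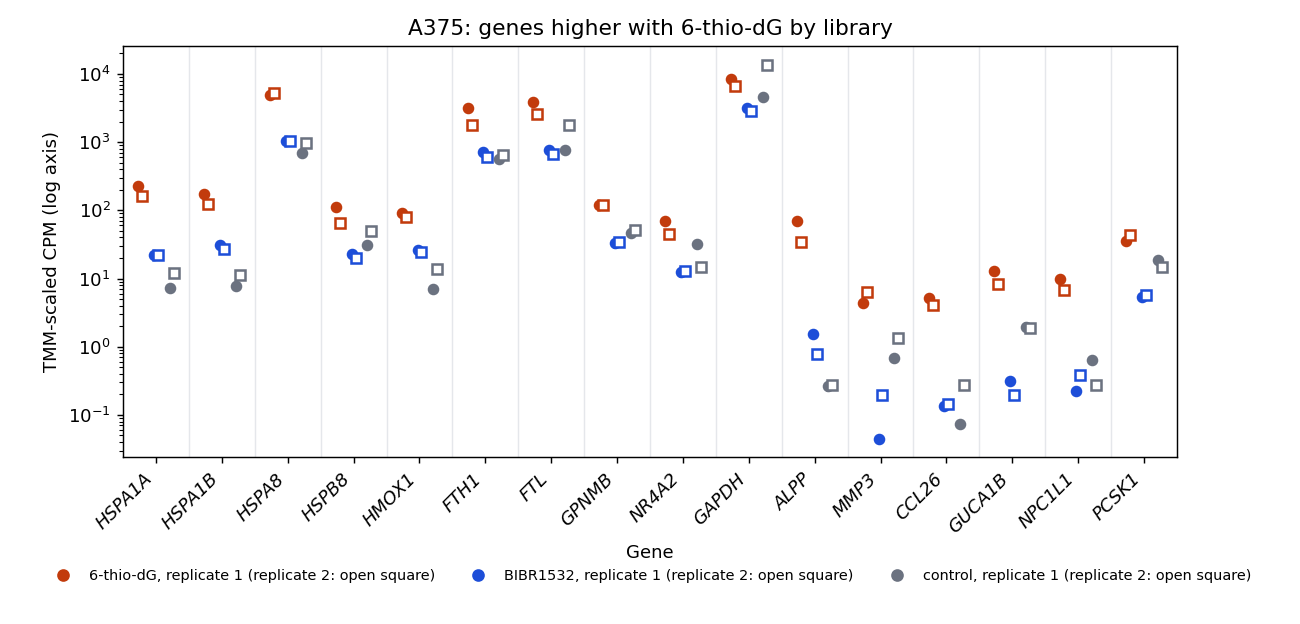
TMM-scaled CPM (vertical axis, log scale) in each A375 library for 16 genes higher with 6-thio-dG than with BIBR1532, filled circles for replicate 1 and open squares for replicate 2. HSPA8 lies at 4970 and 5200 CPM with 6-thio-dG and at 1030 and 1040 CPM with BIBR1532, and ALPP at 69.7 and 33.9 CPM against 1.52 and 0.776 CPM.

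Proteasome and ribosomal protein genes had medians above 0 with no call. Of 27 proteasome subunits, 14 had both 6-thio-dG libraries above both BIBR1532 libraries (median log2 difference 0.417). There edgeR called 0, DESeq2 called 1 and 6 had an unadjusted p under 0.05, and 13 were called higher with 6-thio-dG after GC correction. Over all 22766 genes tested, 5726 had an unadjusted p under 0.05, both directions together. After GC correction 1835 of 13280 genes were called higher with 6-thio-dG. For 38 cytosolic ribosomal proteins the median was 0.306, with 0 calls by edgeR, 1 by DESeq2 higher with 6-thio-dG, and 4 and 2 at an unadjusted p under 0.05 higher with 6-thio-dG and with BIBR1532. After GC correction 10 were called higher with 6-thio-dG and 1 higher with BIBR1532. The lysosome list split by member. CTSK and CTSL, cathepsin proteases, were higher with BIBR1532 beside CTSS (3.70-fold and 2.38-fold, adjusted p = 0.0426 and 0.0455), while 13 of the 33 members had both 6-thio-dG libraries on top and 11 had both BIBR1532 libraries on top. After GC correction 12 were called higher with 6-thio-dG and 6 higher with BIBR1532. CTSK and CTSL had adjusted p of 0.667 and 0.832 without BIBR1532 replicate 1, and 0.631 and 0.668 without replicate 2.

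The genes highest with 6-thio-dG relative to BIBR1532 included genes known from other tissues. ALPP, placental alkaline phosphatase, led them at 69.7 and 33.9 CPM with 6-thio-dG, 1.52 and 0.776 CPM with BIBR1532 and 0.262 and 0.272 CPM in the control (45.7-fold, 5.51 ± 0.61 SE, adjusted p = 0.0262). It is a near copy of other alkaline phosphatase genes, so its count is uncertain. GUCA1B, a calcium sensor of photoreceptors, was at 13.1 and 8.4 CPM against 0.314 and 0.194 CPM, with the control between at 1.94 and 1.9 CPM (42.1-fold, adjusted p = 0.0207). NPC1L1, the intestinal cholesterol importer, was at 9.85 and 6.72 CPM against 0.224 and 0.388 CPM (27.3-fold, adjusted p = 0.0251). TRIM54, a muscle ubiquitin ligase, was at 7.1 and 4.77 CPM against 0.135 and 0.242 CPM (31.4-fold, adjusted p = 0.0238), and C9orf131 at 5.68 and 5.51 CPM against 0.179 and 0.194 CPM (29.8-fold, adjusted p = 0.0199). With BIBR1532 each of these 4 lay below 0.5 CPM in both libraries. Over both BIBR1532 libraries GUCA1B had 11 counts, NPC1L1 13, TRIM54 8 and C9orf131 8, so the size and order of these folds are imprecise. Smaller folds were found for ZNF114 (16.9), C11orf86 (16.6), ALPK3 (15.2), GCNT3 (14.7), CNTF (14) and CDHR5 (13.5), with adjusted p between 0.0232 and 0.0359. PCSK1, the prohormone convertase, was at 35 and 43.9 CPM against 5.34 and 5.77 CPM, with the control between at 18.5 and 14.8 CPM (7.33-fold, adjusted p = 0.028). Without BIBR1532 replicate 1 and 2 the calls of ALPP (0.00146 and 0.00697), GUCA1B (0.0143 and 0.035), TRIM54 (0.0415 and 0.0143) and C9orf131 (0.0284 and 0.0247) held, that of NPC1L1 was lost without replicate 1 (0.0643) and that of PCSK1 without either (0.353 and 0.275). ZNF114, C11orf86, ALPK3, GCNT3, CNTF and CDHR5 were not called without either BIBR1532 replicate, with adjusted p from 0.068 (ZNF114) to 0.227 (CNTF).

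Markers of other cell types gave few calls. Of 12 epithelial markers 5 passed the filter and edgeR called 0, as did DESeq2, with 1 and 2 at an unadjusted p under 0.05 higher with 6-thio-dG and with BIBR1532. The list's summed level was 648 and 448 CPM with 6-thio-dG and 560 and 514 CPM with BIBR1532, of which KRT18 held 465 and 328 against 242 and 220 CPM and KRT8 148 and 97.1 against 259 and 246 CPM. Keratinocyte markers summed to 259 and 177 against 298 and 284 CPM. KRT6A, a keratin of wounded epidermis, was at 0.251 and 0.201 against 12.3 and 12.8 CPM (52.7-fold, adjusted p = 0.0199) and was the one call of 9. It had 6 counts over both 6-thio-dG libraries, so the size of its fold is imprecise. Leukocyte markers gave 1 call in each direction of 7, ITGAM (7.13-fold higher with BIBR1532, adjusted p = 0.0419) and CD4 (4.71-fold higher with 6-thio-dG, adjusted p = 0.037), both below 5 CPM in each library, and the pan-leukocyte marker PTPRC and the T cell markers CD3E and CD3D did not pass the filter. The leukocyte list summed to 1010 and 770 CPM with 6-thio-dG against 654 and 599 CPM with BIBR1532, of which CD68, a lysosomal protein, held 984 and 732 against 632 and 576 CPM. TIE1, an endothelial receptor, was at 2.59 and 2.35 against 18.6 and 18 CPM (7.19-fold, adjusted p = 0.0283), while PECAM1 and CDH5, which define endothelium, did not pass the filter. The fibroblast list summed to 17.9 and 17.3 against 28 and 26.8 CPM with 0 calls by edgeR, 1 by DESeq2 and 2 at an unadjusted p under 0.05. Without BIBR1532 replicate 1 and 2 the adjusted p was 0.0879 and 0.0847 for ITGAM, 0.533 and 0.458 for CD4, 0.203 and 0.17 for TIE1, and 0.000103 and 0.000113 for KRT6A. After GC correction the calls higher with 6-thio-dG and with BIBR1532 were 1 and 3 for epithelial, 0 and 1 for keratinocyte, 0 and 1 for fibroblast, 2 and 2 for leukocyte and 0 and 2 for endothelial markers, which summed to 63.8 and 40.4 against 106 and 91 CPM. The part of other cells in these values was not tested. In bulk RNA, fewer cells of a kind and less RNA per cell cannot be told apart.

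The same pair of treatments in LOX-IMVI BR gave more calls, with 2881 genes (9.9%) higher with 6-thio-dG and 3118 (10.7%) higher with BIBR1532 of 29114 tested. These calls come from a fit that shared its spread over all 12 libraries, so the counts are not directly comparable with those of A375 above. Of the 569 symbol-named genes higher with BIBR1532 in A375, 251 were called the same way in LOX-IMVI BR, 9 the opposite way and 309 were not called. Of the 205 higher with 6-thio-dG, 102 were called the same way, 5 the opposite way and 98 were not called. The difference between the lines was tested by an interaction, which called 350 genes above 0 (1.2%) and 340 below 0 (1.17%). It was called for 118 of the 569 and 23 of the 205. Both sets were chosen by their A375 difference, which is also part of the interaction. Their shares therefore cannot be compared with those over all genes.

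Cytokines with large differences in A375 had large differences in LOX-IMVI BR as well, where CSF2 differed by -6.69, IL6 by -7.82 and CXCL8 by -4.73 on the log2 scale. The difference between lines was not called for these 3 (adjusted p = 0.294, 0.292 and 0.297). Their levels differed between the lines. In LOX-IMVI BR CSF2 had 11 counts with 6-thio-dG and was at 29.4 and 14 CPM with BIBR1532, against 421 and 379 CPM in A375. The LOX-IMVI BR BIBR1532 libraries of IL6 (555 and 319 CPM) and CXCL8 (3250 and 1790 CPM) also lay apart. The controls there were at 28.7 and 28.7 CPM for IL6 and 273 and 249 CPM for CXCL8. IL1B differed by -4.60 in LOX-IMVI BR, less than in A375 (interaction -2.64 ± 0.41 SE, adjusted p = 0.0036), and its level with 6-thio-dG there was 61 and 72.1 CPM, far above the 2.09 and 1.75 CPM of A375. PTX3 and TNFAIP3 differed more in LOX-IMVI BR (-7.89 and -4.81, interaction adjusted p = 0.0481 and 0.0214). HSPA8 (3.19) and HSPA1A (3.01) were higher with 6-thio-dG in LOX-IMVI BR too, where the control of HSPA8, at 4800 and 4620 CPM, lay near 6-thio-dG (5570 and 5610 CPM) and not near BIBR1532 (476 and 745 CPM). The control of HSPA1A there, at 62.3 and 56.7 CPM, lay between 6-thio-dG (133 and 133 CPM) and BIBR1532 (13.5 and 19.6 CPM). In A375 the control of HSPA8 lay near BIBR1532. FTH1, the ferritin heavy chain, differed between the lines (-0.37 in LOX-IMVI BR, interaction 2.26 ± 0.42 SE, adjusted p = 0.0104). MMP3, GUCA1B, NPC1L1 and C9orf131 were higher with 6-thio-dG in LOX-IMVI BR by 5.38, 5.80, 4.91 and 5.39, close to their A375 values of 5.50, 5.40, 4.77 and 4.90. With BIBR1532 in LOX-IMVI BR, GUCA1B had 14 counts, NPC1L1 3 and C9orf131 4, so these values are imprecise too. ALPP was at most 0.069 CPM in every LOX-IMVI BR library. PLK1 differed by -4.18 in LOX-IMVI BR, more than in A375 (interaction adjusted p = 0.0214), and all 39 tested mitosis genes were called higher with BIBR1532 there.

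**Figure D5:**
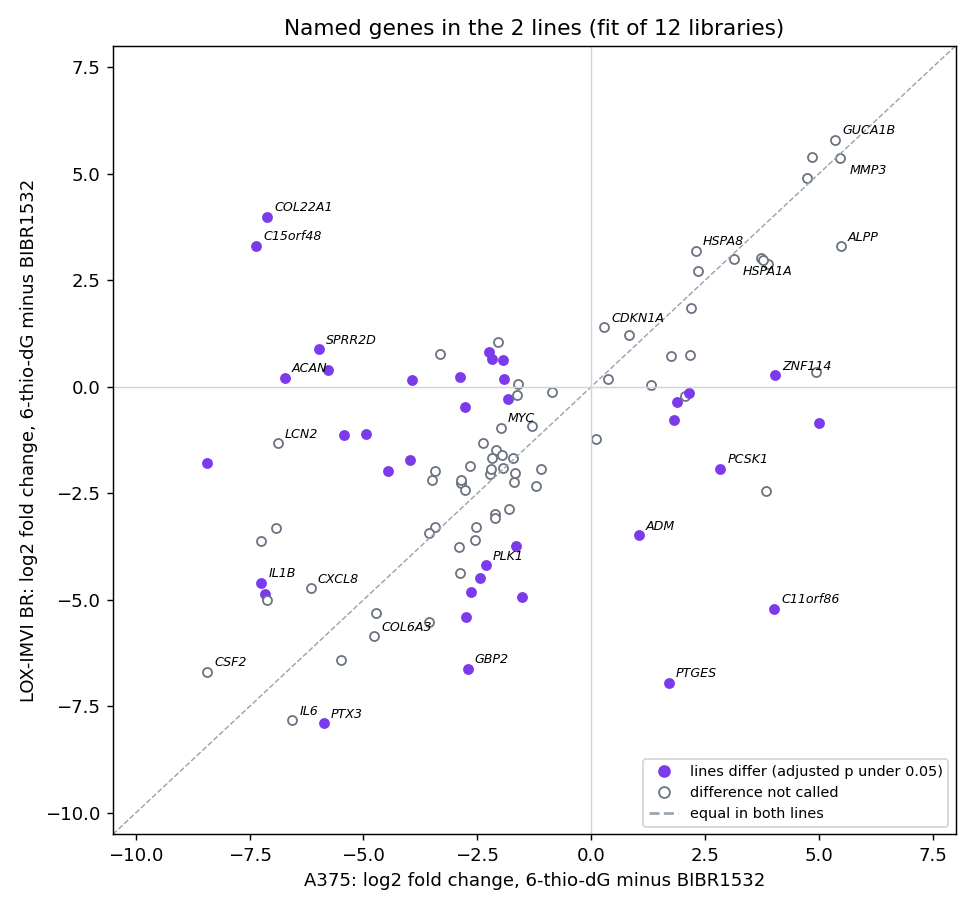
Log2 fold change, 6-thio-dG minus BIBR1532, of the named genes reported here in A375 (horizontal axis) and LOX-IMVI BR (vertical axis) from the fit of all 12 libraries, with filled points where the difference between lines was called and the dashed line marking equal values. MMP3, GUCA1B and HSPA1A lie near the line, whereas COL22A1 and C11orf86 lie in the quadrants of opposite sign. The LOX-IMVI BR value of COL22A1 rests on 5 counts with 6-thio-dG and 0 with BIBR1532, so its sign there is uncertain.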

How the data were processed

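RNA sequencing counts of A375 and LOX-IMVI BR cells were analysed (2 libraries per group). The authors deposited raw counts per gene, and the submitters' processing notes name STAR, Picard, GATK, featureCounts 1.5.1 and hg19/GRCh37 without giving their roles. Of 75253 rows, 4 repeated date names were dropped and 24 date-like names kept. For the 4 A375 compound libraries the test was edgeR 4.0.16 under R 4.3.3 (low-count filter, TMM, robust quasi-likelihood test, Benjamini-Hochberg over 22766 genes, threshold 0.05, 2 residual degrees of freedom), with a biological coefficient of variation of 34.6%. The difference between lines came from a fit of all 12 libraries. Alternatives used DESeq2 1.42.0, limma 3.58.1, other scaling, filters, a GC correction and left-out libraries. The A375 test was also run on counts simulated with known log2 differences. It called 21 of 34 genes at -3 and 25 of 33 at 3. At smaller differences it called 6 of 34 at -2, 7 of 33 at 2, 1 of 33 at -1 and 0 of 33 at 1. Of 22566 unchanged genes 7 were called. The simulation drew each gene independently, with the same spread for both compounds and no trend along GC content. In the data the 6-thio-dG replicates lay further apart and deviated along GC content. The simulated counts therefore do not give the error rate or the power of the test on the real libraries. A gene that was not called can thus still differ. The members and the 37 gene lists were chosen with earlier results of these data known. Named genes were a followed set, the 12 largest called differences per direction with at least 5 CPM in the higher group, up to 4 called members per list with the smallest adjusted p, and 5 per direction for the difference between lines. Depth limits low-level genes, and intervals of low counts are exact at the 95% level for counting error only. Promoter windows came from RefSeq, GRCh38.p14, a build other than that of the counts. A few genes that the naming rule selects are not reported here, but remain in the counts.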

Additional observations from a re-analysis of the deposited data

Results flagged for a closer look

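A test of the interaction in edgeR found that the difference between the compounds differed between A375 and LOX-IMVI BR for 350 genes above 0 (6-thio-dG relatively higher in A375) and 340 below 0. The values that follow are differences of log2 fold changes, A375 minus LOX-IMVI BR, for the named genes furthest in each direction that are reported here. Above 0 were C11orf86 (9.22, adjusted p = 4.239e-05), the prostaglandin synthase PTGES (8.65, adjusted p = 3.933e-05), PCSK1 (4.75, adjusted p = 0.001327) and ADM, adrenomedullin (4.53, adjusted p = 0.0001142). With 6-thio-dG in LOX-IMVI BR, C11orf86 and PTGES had 2 counts each and PCSK1 had 6. PTGES and ADM were not called between the compounds in A375 (edgeR adjusted p = 0.0663 and 0.124), and differed by -6.94 and -3.48 in LOX-IMVI BR. Below 0 were the collagen COL22A1 (-11.10, adjusted p = 0.002754), C15orf48 (-10.66, adjusted p = 0.02219), the proteoglycan ACAN (-6.94, adjusted p = 0.001178) and SPRR2D (-6.86, adjusted p = 0.03817). In every LOX-IMVI BR library COL22A1 and ACAN were at most 0.16 CPM and C15orf48 and SPRR2D at most 0.12 CPM, so the values of these 4 there rest on few or no counts.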

How the results depend on the processing

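Counts of genes higher with 6-thio-dG and with BIBR1532, 502 and 889, were 2115 and 2549 with all 12 libraries, 958 and 949 with upper-quartile factors, 280 and 465 with voom quality weights, 1933 and 2691 with no low-count filter, 63 and 187 among symbol-named genes alone, 1835 and 2142 with GC correction, and 1749 and 2368 with the replicate block (1769 and 2093 with GC correction and the block). The labels do not say whether same-numbered libraries share more than a number. The differences between replicates 1 and 2 correlated at 0.5613 between the compounds over 22766 genes, from 2 pairs of libraries. The main fit did not use this possible pairing. Leaving out 1 library gave 42 to 6385 and 203 to 6673. The 690 genes that differed between lines became 1634 with no filter, 449 with the replicate block, 1522 with GC correction and 183 to 4005 with 1 library left out. The cause was not tested. MITF reversed with voom weights (-0.2108), the replicate block (-0.2102), GC correction (-0.01223) and GC correction with the block (-0.09062); with 1 library left out it ran from -1.443 to 0.8651, CDKN1A from -0.07288 to 0.6182 and MDM2 from -0.1483 to 1.475. Of the 94 named called genes, 30 lost their call among symbol-named genes alone, 9 with voom weights, 8 with upper-quartile factors and 1 with GC correction, and none reversed in the 17 settings. The block changed no call of these 94, and it called CYP1B1 (adjusted p = 0.01432), HSPA5 (0.003259), DDIT3 (0.008666), TIMP3 (2.163e-05) and PTGES (0.008929), which edgeR had not called without it.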
